A study of Mus musculus with 65 samples.

Results

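The oxidative phosphorylation genes described here are the 102 of the 38924 genes in the count tables whose names mark subunits of the respiratory chain and ATP synthase. They were chosen by name alone, from names beginning Nduf followed by a, b, c, s or v, Uqcr, Cox4 to Cox8, Atp5, mt-Nd, mt-Co, mt-Atp or mt-Cytb, together with Sdha to Sdhd, and pseudogene names were left out. Of these, 13 lie in mitochondrial DNA and 89 in the nucleus, and the 2 sets are kept apart below. Among the nuclear genes 80 encode subunits, and the rule also takes in 9 genes that do not: the complex I assembly factors Ndufaf1 to Ndufaf7, and Atp5s and Atp5sl. The 80 nuclear subunits belong to complex I (36 genes), complex II (4), complex III (8), complex IV (18, with Ndufa4 and Ndufa4l2 placed there) and complex V (14).

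RNA was sequenced from the cortex and hippocampus of male C57BL/6J mice that had free access to a running wheel or none. Young runners had 5 cortex and 5 hippocampus libraries, and young sedentary mice had 5 cortex and 4 hippocampus libraries after the study's exclusion of the hippocampus of mouse 18606. At midlife, labelled as a year old, there were 10 cortex and 12 hippocampus libraries of sedentary mice, 6 and 6 of low runners, and 6 and 5 of high runners, the runners having been divided by wheel rotations. By the paper's account, wheels were available for 12 weeks, and young mice were 4 to 5 months old at the end. Midlife mice began at 12 months, so they were older than the labelled year when tissue was taken. The mice were perfused with saline before dissection, and whole regions were sequenced, so lower expression per cell and fewer cells of a type cannot be told apart. Young and midlife mice belonged to separately run experiments, so age and experiment time cannot be told apart either. Total counts per library ranged from 20442700 to 53075800.

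Oxidative phosphorylation is the process by which mitochondria use electrons from food to make ATP. Complexes I and II pass electrons into the chain, complex III hands them to cytochrome c, and complex IV gives them to oxygen. Complexes I, III and IV pump protons across the inner membrane, and complex V, the ATP synthase, makes ATP from their return. Every complex but II mixes subunits made from nuclear genes with core subunits made inside the mitochondrion, and neurons draw most of their ATP from this route.

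The promoters of 4 nuclear genes named in the results below are shown, as RefSeq gives them on GRCm38.p6. Each runs from 250 bases before the transcription start to 50 after it. Capitals mark a match to the consensus letters of NRF1 (GCGCA, any base, then GCGC) or YY1 (AAGATGGCG), factors known to act on genes for mitochondrial proteins. Atp5c1 and Ndufa9 are shown because they were lower in young running cortex, Ndufs4 because it was among the genes with the smallest p between ages in the hippocampus, and Cox8b because it went the other way in young running hippocampus. Atp5c1, on chr2:10080383-10080682 of the minus strand, has an NRF1 match starting at −17 from the transcription start. Ndufa9, on chr6:126849095-126849394 of the minus strand, has a YY1 match at +29, and Ndufs4, on chr13:114388045-114388344 of the minus strand, has one at +35. Cox8b, on chr7:140900397-140900696 of the minus strand, has no match to the 4 motifs searched, and neither has Ndufaf7, also called lower in young running cortex. Uqcrfs1 and Cox7c, also among the smallest p between ages in the hippocampus, have no match and are not shown. Ndufs4, Uqcrfs1 and Cox7c were not called between ages.
Atp5c1: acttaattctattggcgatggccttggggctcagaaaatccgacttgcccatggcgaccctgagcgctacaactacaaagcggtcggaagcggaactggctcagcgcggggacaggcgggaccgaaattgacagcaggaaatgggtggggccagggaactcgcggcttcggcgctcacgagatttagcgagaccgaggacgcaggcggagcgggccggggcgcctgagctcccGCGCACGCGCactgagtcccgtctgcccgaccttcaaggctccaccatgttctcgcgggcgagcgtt
Ndufa9: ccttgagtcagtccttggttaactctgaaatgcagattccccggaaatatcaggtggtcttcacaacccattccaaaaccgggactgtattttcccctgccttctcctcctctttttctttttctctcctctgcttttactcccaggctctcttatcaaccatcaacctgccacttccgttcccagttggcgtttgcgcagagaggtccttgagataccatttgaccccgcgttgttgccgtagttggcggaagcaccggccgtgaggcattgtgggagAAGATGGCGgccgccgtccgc
Ndufs4: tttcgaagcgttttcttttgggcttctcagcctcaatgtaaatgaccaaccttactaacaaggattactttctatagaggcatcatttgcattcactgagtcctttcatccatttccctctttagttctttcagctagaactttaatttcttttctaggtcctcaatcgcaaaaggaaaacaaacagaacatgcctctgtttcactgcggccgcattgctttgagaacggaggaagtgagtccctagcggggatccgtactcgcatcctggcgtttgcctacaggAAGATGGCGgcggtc
Cox8b: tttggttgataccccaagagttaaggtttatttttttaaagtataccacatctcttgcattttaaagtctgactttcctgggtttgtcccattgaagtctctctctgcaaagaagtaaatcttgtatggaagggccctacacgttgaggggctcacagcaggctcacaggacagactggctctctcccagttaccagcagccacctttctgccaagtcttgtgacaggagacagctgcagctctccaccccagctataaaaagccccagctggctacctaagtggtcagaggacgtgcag

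RefSeq windows were at hand for 71 of the 89 nuclear genes, and both strands were searched. The NRF1 letters were found in 18 of the 71 (25.4%), against 5.19% of all genes with a window. The YY1 letters were in 7 (9.86% against 1.64% of all genes). The letters AAGGTCA, bound by the estrogen-related receptors, were in 8 (11.3% against 5.38%), and the ETS letters CCGGAAGT in 5 (7.04% against 4.31%). These are matches of letters only. Atp5c1 has a second annotated start whose window holds no match. Uqcrc2, Atp5f1 and Cox6a2 had no entry and are named only.

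Per length, the mitochondrial transcripts were far more abundant than the nuclear ones. The highest was mt-Co1, the catalytic subunit of complex IV, with a median over all libraries of 15405 RPKM (reads scaled to transcript length and library total), and the lowest was mt-Nd4l, a membrane subunit of complex I, at 1349 RPKM. Of the nuclear genes, Atp5b (the catalytic beta subunit of ATP synthase) led at 492.99 RPKM, followed by Cox8a at 414 and Cox4i1 at 388, both ubiquitous subunits of complex IV. The lowest were 3 isoforms of complex IV subunits known from other tissues, namely Cox8b at 0.455 RPKM, Cox4i2 at 1.21 and Cox6b2 at 1.67. The median nuclear gene stood at 68.9 RPKM. By complex, the middle of the nuclear subunits was 56.3 RPKM in complex I, 57.9 in II, 102 in III, 124 in IV and 130 in V. RPKM here divides by the principal transcript's length, which is unusually long for Ndufb2, Ndufab1 and Atp5g1 and lowers their values.

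Complex IV is where the family keeps alternative subunits for particular tissues, and in both brain regions the common isoform carried nearly all of the transcript. Cox6a2, the isoform of heart and skeletal muscle, made up a median of 2.28% of the Cox6a RPKM in young sedentary cortex and 1.07% in young sedentary hippocampus. Cox4i2, an isoform induced by low oxygen, was 0.318% and 0.27% of the Cox4 RPKM in the same groups. Cox7a1 (heart and muscle) was 1.04% and 0.751% of the Cox7a RPKM, and Cox6b2 (testis) was 0.586% and 1.13% of Cox6b. Cox8b, also a muscle isoform, was 0.0923% and 0.155% of Cox8. Ndufa4l2, a paralogue of Ndufa4 that responds to hypoxia, was 0.822% and 0.796% of the pair. Of the 3 genes for the ring subunit c of ATP synthase, Atp5g1 was 5.73% and 6.31% of the Atp5g1 and Atp5g3 RPKM. Its principal transcript, at 4715 bases against 723 for Atp5g3, lowers this share. Median CPM over the young libraries was 70.2 for Atp5g1 and 164 for Atp5g3. Atp5g2 is listed with 0 counts in all libraries, and whether annotation or counting accounts for this was not tested. Cox8c had 1 count in 1 library, and Cox7b2 no more than 9 counts in any library, so neither gives a value.

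All nuclear genes together took 0.702% to 1.89% of the counts of a library, and the 13 mitochondrial genes took 6.25% to 9.79% in the libraries used. To follow the nuclear genes from mouse to mouse, their level was taken as the mean over the 89 genes of log2(CPM + 0.5), CPM being counts scaled to the library total. In cortex this level ran from 5.51 to 5.62 in young runners and from 5.56 to 6.04 in young sedentary mice, where mouse 18606 was highest. At midlife the cortex groups spread further. Sedentary mice ran from 5.48 to 6.35 with a median of 5.91, low runners from 5.70 to 6.27 with a median of 6.00, and high runners from 5.64 to 6.90 with a median of 6.10. The midlife groups overlapped, and mouse 3597 of the high runners stood highest of all libraries. Hippocampus libraries lay closer together, from 5.42 to 5.89 across the 5 groups, while the excluded hippocampus of mouse 18606 stood at 6.59.

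**Figure D1:**
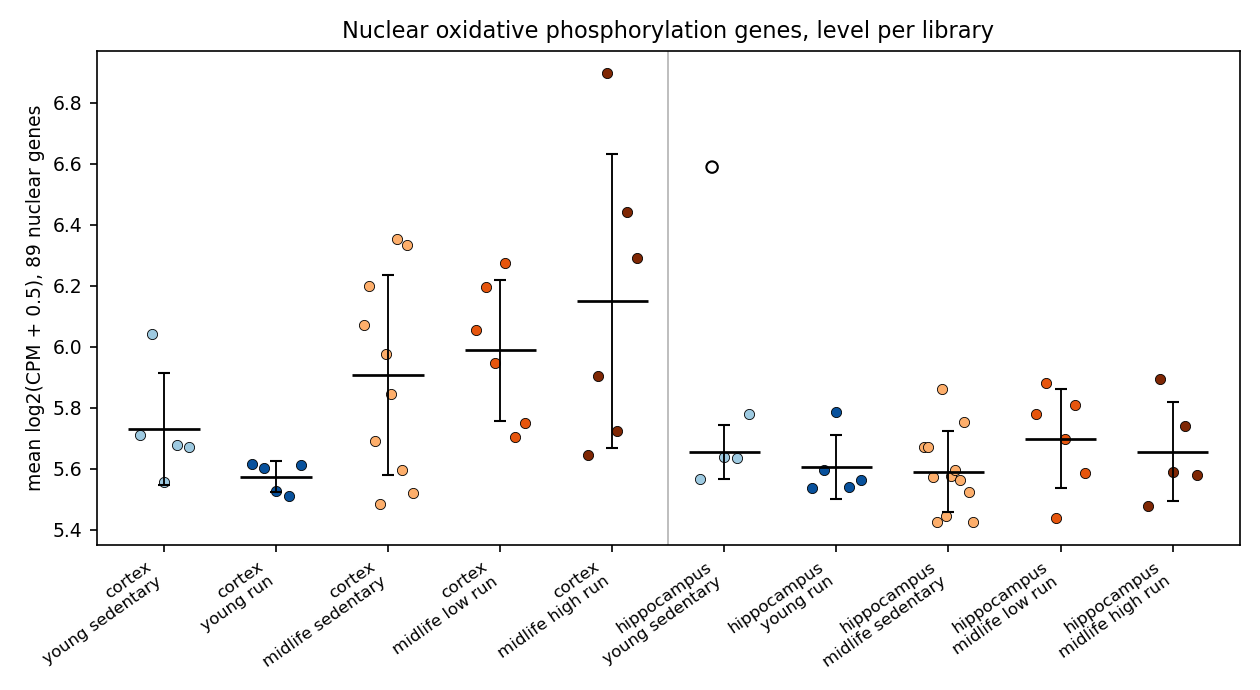
Level of the 89 nuclear genes in each library (mean log2(CPM + 0.5)), by region, age and activity, with the mean (long bar) and SD (whiskers) of each group. The open point is the excluded hippocampus of mouse 18606 at 6.59. Midlife cortex groups spread widest, up to 6.90 in a high runner, and every hippocampus group lies between 5.42 and 5.89.

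The nuclear genes did not vary one by one. Their level rose and fell with a length score, the mean log2(CPM + 0.5) of 2377 other genes with principal transcripts under 1500 bases minus that of 4930 genes over 4000 bases. Across the 32 cortex libraries the correlation of the nuclear level with this score was r = 0.994, and across 32 hippocampus libraries it was 0.923. Of the 89 genes, 76 had an r above 0.9 with the score in cortex and 25 did in hippocampus. The members themselves are short, with a median transcript of 908 bases against 3005 for other expressed genes. The same level followed the mitochondrial ribosomal proteins (r = 0.995 in cortex, 0.957 in hippocampus) and the cytosolic ribosomal proteins (0.989 and 0.888). It did not follow the 13 mitochondrial transcripts (−0.138 and 0.280). These values describe libraries that share their depth, dissection and preparation, so no p is given. The part of transcript length in the comparisons below was not tested beyond a fit with the score as a covariate.

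**Figure D2:**
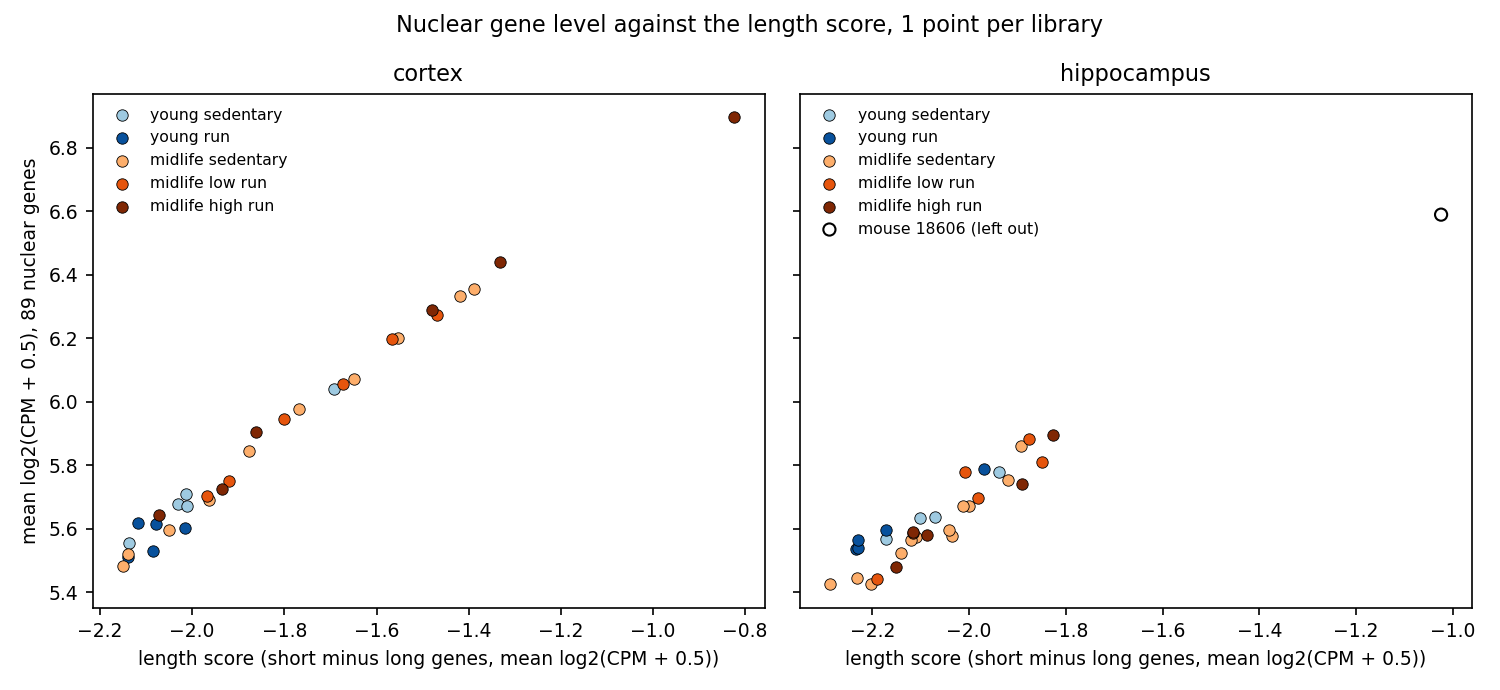
Nuclear gene level (vertical, mean log2(CPM + 0.5) over 89 genes) against the length score (horizontal, short minus long genes) in cortex (left) and hippocampus (right), 1 point per library. In both regions the libraries of all groups lie along 1 line, with r = 0.994 in cortex and 0.923 in hippocampus without mouse 18606.

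The first comparison asked whether running from a young age altered these genes. In young cortex they were lower in runners: 86 of the 88 nuclear genes tested had a negative log2 fold change, with a median of −0.19 against 0.00306 for all genes tested. With p-values from the quasi-likelihood test of edgeR, adjusted after Benjamini and Hochberg over all genes, 5 passed an adjusted p (FDR) of 0.05. All 5 were lower, where 2.85% of all 14936 genes tested were called lower and 3.48% higher. At an unadjusted p of 0.05, 49 of the 88 were lower and 0 higher, against 13.7% and 14.1% of all genes. Other short genes had a median of −0.085 and long genes of 0.0546, so the members lay below both. The 13 mitochondrial genes stood apart, with a median of −0.0185, 0 called and 0 at an unadjusted p of 0.05.

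Uqcrc2, a core protein of complex III, gave the smallest p. It stood at 109, 121, 123, 127 and 130 CPM in young running cortex and at 138, 138, 140, 140 and 168 CPM in sedentary cortex. The groups did not overlap, and the difference was −0.26 ± 0.063 (log2, SE; FDR = 0.0335 by edgeR). Atp5c1, the gamma subunit of the rotor of ATP synthase, stood at 127, 129, 130, 131 and 135 CPM in runners and at 140, 148, 149, 150 and 190 CPM in sedentary mice. It too did not overlap, at −0.27 ± 0.07 (FDR = 0.0427 by edgeR). Ndufa9, an accessory subunit of complex I, stood at 71.0, 75.2, 77.1, 81.1 and 84.7 CPM in runners and at 86.4, 87.0, 87.3, 89.3 and 106 CPM in sedentary mice, a difference of −0.24 ± 0.065 (FDR = 0.0430 by edgeR).

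Atp5f1, subunit b of the stalk that holds the ATP synthase head still, overlapped slightly. It was 161, 161, 162, 177 and 180 CPM in runners and 180, 190, 190, 197 and 239 CPM in sedentary mice (−0.26 ± 0.071, FDR = 0.0477 by edgeR). Ndufaf7, a methyltransferase needed to assemble complex I, was 22.4 to 25.9 CPM in runners and 25.7 to 29.5 in sedentary mice (−0.21 ± 0.057, FDR = 0.0443 by edgeR). In addition to the first 3, Ndufs3, a core subunit of complex I, and Atp5b did not overlap (5 of 88 lower, against 3.86% of all genes), at −0.22 ± 0.073 (FDR = 0.0786) and −0.18 ± 0.068 (FDR = 0.107). Mouse 18606 was the highest sedentary library in each of these genes. Without its cortex library the median of the nuclear genes was −0.12 and 7 were called.

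In GRCm38 the genes called lower in young cortex lie apart, Uqcrc2 (ENSMUSG00000030884) on chromosome 7 from 120635176 to 120659524, Atp5c1 (ENSMUSG00000025781) on chromosome 2 from 10056016 to 10080510, Ndufa9 (ENSMUSG00000000399) on chromosome 6 from 126821721 to 126849136, Ndufaf7 (ENSMUSG00000024082) on chromosome 17 from 78937135 to 78948052 and Atp5f1 (ENSMUSG00000000563) on chromosome 3 from 105942698 to 105960099. The later results turn on Cox8b (ENSMUSG00000025488) on chromosome 7 from 140898945 to 140900446 and Cox6a2 (ENSMUSG00000030785) on chromosome 7 from 128205435 to 128206387.

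The 5 calls were near the threshold. Leaving out 1 library at a time gave between 0 and 21 calls: 0 without any of mice 18290, 18526, 18527, 18528, 18627 or 18681, 2 without 18605, 7 without 18289 or 18606, and 21 without 18626. The share of all genes called is not given for these refits. With the length score as a covariate the median was −0.079 and 2 remained called, Atp5c1 and Uqcrc2. With the score of choroid plexus markers as a covariate 0 were called, at values near those above for Uqcrc2 (−0.25 ± 0.074, FDR = 0.123 by edgeR), Atp5c1 (−0.25 ± 0.083), Atp5f1 (−0.24 ± 0.084) and Ndufa9 (−0.23 ± 0.076), and the median was −0.16. The direction was shared by all 5 complexes, with medians of −0.20 in I, −0.18 in II, −0.20 in III, −0.22 in IV and −0.21 in V. All 4 complex II genes were lower at an unadjusted p of 0.05.

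Several neighbouring pathways, taken from lists chosen for their role, held genes that were lower in the same cortex libraries. Of all 14936 genes tested there, 2.85% were called lower and 3.48% higher by edgeR. At an unadjusted p of 0.05, 13.7% were lower and 14.1% higher. In glycolysis 4 of 17 were lower, namely Pgam1 (−0.22 ± 0.058), Tpi1 (−0.23 ± 0.063), Gapdh (−0.24 ± 0.065) and Pgk1 (−0.21 ± 0.058), with 0 higher and 13 lower at an unadjusted p of 0.05. All 3 Vdac genes, which form the pores of the mitochondrial outer membrane, were lower among the 10 genes of uncoupling and ATP export (Vdac1 at −0.23 ± 0.046, Vdac2 at −0.26 ± 0.062, Vdac3 at −0.22 ± 0.061). In the TCA cycle only Sucla2 was called of 13 (−0.20 ± 0.05), and of 18 genes for mitochondrial biogenesis only Tfb2m (−0.20 ± 0.05). Of 38 assembly factors outside the name rule 0 were called, and 6 were lower at an unadjusted p of 0.05. In the same comparison 3 of 10 neuron markers were called lower, with a median of −0.15 over the list, and 2 of 7 endothelium markers, 1 of 6 astrocyte markers and 1 of 7 microglia markers higher. Summed astrocyte markers were 5078 to 5969 CPM in young running and 3621 to 5244 CPM in young sedentary cortex. The part of cell composition in the lower values was not tested.

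In young hippocampus the nuclear genes were again mostly lower in runners, by less. Of 88 tested, 79 were negative, with a median of −0.11 against 0.00122 for all genes, −0.0581 for short and 0.0397 for long genes, and of −0.016 with the length score as a covariate. By edgeR's quasi-likelihood test 1 was called lower (3.7% of 15096 genes were) and 1 higher (9.18% of all genes), with 18 lower and 2 higher at an unadjusted p of 0.05, against 12.5% and 16.7% of all genes. Ndufa9, which was also lower in cortex, stood at 78.6, 79.4, 80.1, 80.5 and 85.7 CPM in runners and at 85.8, 88.1, 88.2 and 88.98 CPM in sedentary mice, a difference of −0.14 ± 0.036 (FDR = 0.0267 by edgeR). The groups did not overlap, and runner 18526 lay next to the lowest sedentary mouse. Uqcrc2 ran from 138 to 145 CPM in runners and from 146 to 153 in sedentary mice without overlap, at −0.11 ± 0.035 (FDR = 0.0522 by edgeR), which missed the threshold. These 2 were the only nuclear genes that were lower without overlap, where 3.56% of all genes were. Without mouse 18526 the number called lower was 20, with mouse 18605 left out it was 2, and without 18289, 18290, 18527 or 18528 it was 0. The share of all genes called in those fits is not given. The 13 mitochondrial genes had a median of −0.0564, with 0 called (1 lower at an unadjusted p of 0.05). That gene was mt-Co1, at −0.20 ± 0.06 with an FDR of 0.057 by edgeR.

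Cox8b was the exception. It was 0.850, 0.863, 1.22, 1.51 and 1.63 CPM in running hippocampus and 0, 0.174, 0.259 and 0.633 CPM in sedentary hippocampus, so that every runner lay above every sedentary mouse, as in 10.6% of all genes. The difference was 1.98 ± 0.49 (log2, SE; FDR = 0.0226 by edgeR). Cox6b2, at 2.08 to 3.37 CPM in runners and 0.973 to 2.46 in sedentary mice, differed by 0.74 ± 0.25 (FDR = 0.0814 by edgeR), and Cox7a1, at 0.714 to 1.44 and 0.294 to 0.863 CPM, by 0.65 ± 0.30 (FDR = 0.185). Neither passed. These low counts moved with the choroid plexus markers, whose part in the result was not tested beyond a fit with their score as a covariate. The 18 choroid plexus markers summed to 3772 to 8411 CPM in running hippocampus and 168 to 2203 in sedentary hippocampus, none was at 0 in either group, and 17 of the 18 were called higher. Across the 32 hippocampus libraries r with the choroid plexus score was 0.943 for Cox6b2, 0.929 for Cox8b and 0.830 for Cox7a1, against a median of −0.299 over the 89 nuclear genes. With that score as a covariate the Cox8b difference was −0.15 ± 0.67 (FDR = 0.9999 by edgeR), Ndufa9 was at −0.13 ± 0.088 (FDR = 0.9999), and 0 nuclear genes were called. The score itself was 5.19 to 6.23 in runners and 0.70 to 4.23 in sedentary mice, so that in this comparison it and running cannot be told apart.

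Of the wider lists, Etfa (0.30 ± 0.065) and Etfb (0.26 ± 0.075), which feed electrons from fatty acid and amino acid breakdown into the chain, were higher in young running hippocampus. So was Ucp2, a mitochondrial carrier of the uncoupling protein family (0.99 ± 0.18). Of all genes, 9.18% were called higher in this comparison, where the choroid plexus score and running cannot be told apart. The part of choroid plexus in these values of young hippocampus was not tested. In glycolysis, the TCA cycle, assembly factors and biogenesis 0 genes were called there by edgeR. At an unadjusted p of 0.05, 4, 4, 6 and 1 were lower and 0, 2, 1 and 2 higher in turn. Of all genes, 12.5% were lower and 16.7% higher at that p.

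**Figure D3:**
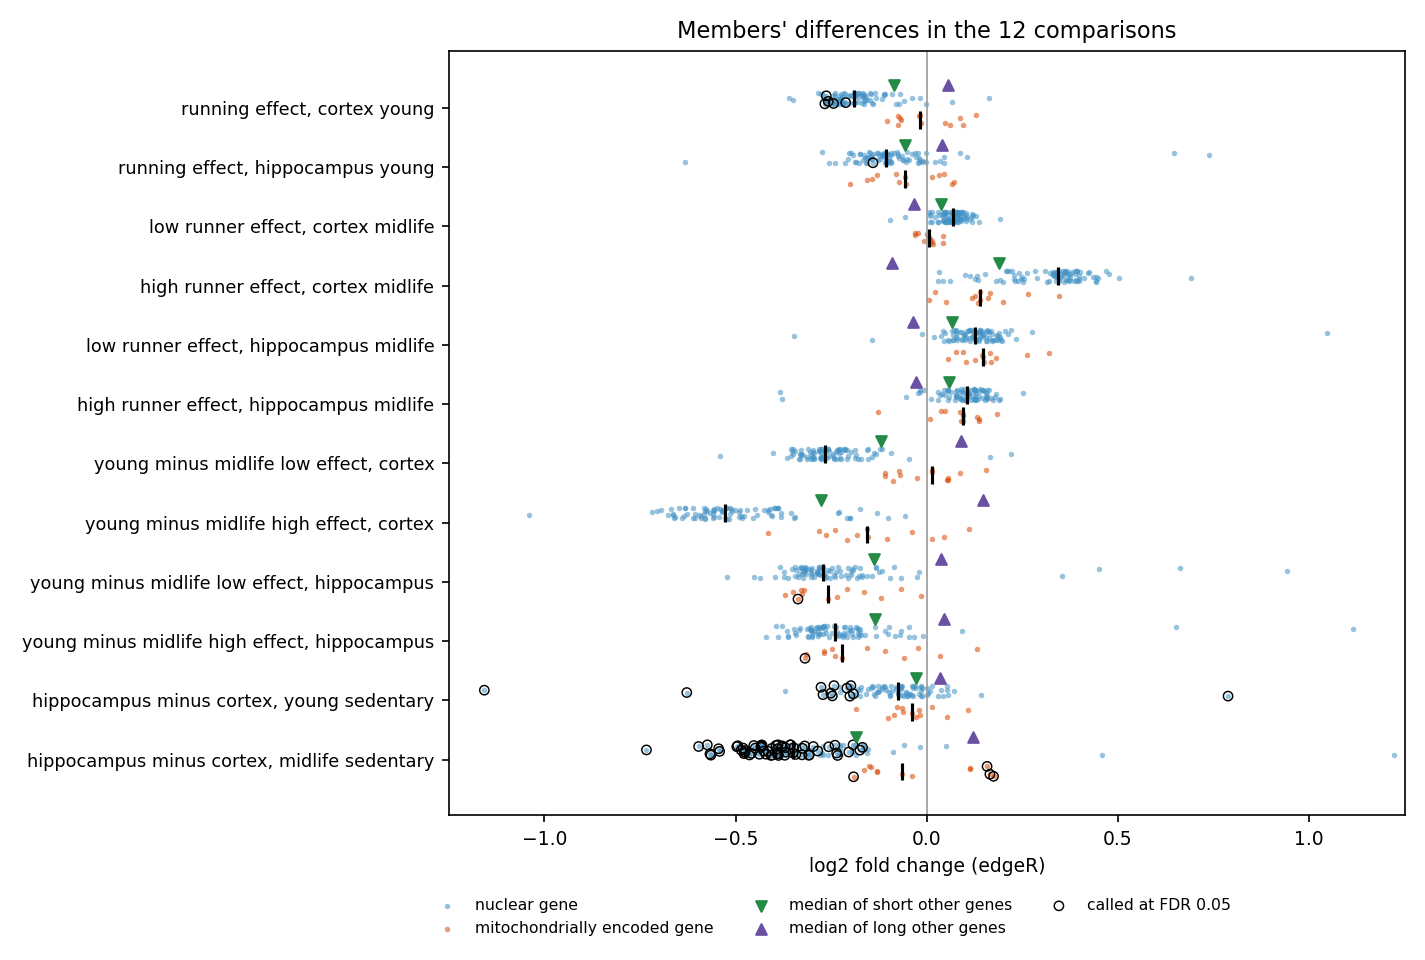
log2 fold change (edgeR) of each nuclear gene (blue) and mitochondrially encoded gene (orange) in the 12 comparisons, with the median of each set (black bars) and the medians of short (green) and long (violet) other genes. Circles mark genes called at an FDR of 0.05, and 4 points lie beyond the axis limit of 1.25. The median of the nuclear genes lies on the same side of 0 as that of the short genes in every comparison, and further out in each.

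At midlife the comparison asked whether running begun late altered the same genes. With 15068 genes tested in cortex and edgeR's quasi-likelihood test, 0 members and 0% of all genes were called in either runner group. The paper, also by edgeR's quasi-likelihood test, reports differentially expressed genes in both midlife runner groups, in cortex and in hippocampus. Fewer genes were called here in each of these comparisons, and the cause of this difference was not tested. Although none was called, 88 of 88 nuclear genes were positive in cortex of high runners. Their median was 0.34 against 0.00307 for all genes, 0.19 for short and −0.0903 for long genes. With the length score as a covariate it was 0.023. At an unadjusted p of 0.05, 5 were higher (4.07% of all genes were) and 0 lower (3.13%). The smallest p belonged to Ndufaf1, an assembly factor of complex I, at 19.98 to 29.4 CPM with a median of 22.8 in high runners and 17.8 to 26.6 with a median of 19.99 in sedentary cortex. It differed by 0.25 ± 0.097 (FDR = 0.554 by edgeR), followed by Cox7a1 (0.69 ± 0.31) and the assembly factor Ndufaf5 (0.32 ± 0.15).

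The size of the high-runner median rested on few mice. Without high runner 3597 it was 0.10, and without high runner 1388 it was 0.45. Within sequencing lane 1, with 5 high runners and 4 sedentary mice, the median difference was 0.0796, and within lane 5, with 1 runner and 6 sedentary mice, it was 0.66. In low runners the cortex median was 0.07, with 86 of 88 positive and 0 nominal either way by edgeR (1.71% of all genes were higher). The smallest p values there were those of Ndufaf1 (0.09 ± 0.097), Atp5s (0.07 ± 0.083) and Ndufaf5 (0.12 ± 0.15). The 13 mitochondrial genes had medians of 0.14 in high and 0.00546 in low runners.

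In midlife hippocampus 87 nuclear genes were tested, and by edgeR's quasi-likelihood test 0 members were called in either runner group, where 0.0991% of 15139 genes were in high runners and 0% in low runners. High runners had a median of 0.11 with 80 positive and 3 higher at an unadjusted p of 0.05 (5.2% of all genes), namely Ndufa1 (0.25 ± 0.11), Ndufs4 (0.17 ± 0.073) and Atp5g1 (0.16 ± 0.075). Ndufa1 and Ndufs4 are accessory subunits of complex I, and loss of Ndufs4 in mice gives a Leigh-like encephalopathy. Ndufs4 ran from 36.9 to 49.4 CPM in high runners and 33.4 to 45.5 in sedentary mice, with medians of 44.5 and 38.7. Without mouse 3597 the high-runner median was 0.04, and with the length score as a covariate it was 0.023.

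Low runners had a median of 0.13 in hippocampus (0.033 with the length score as a covariate), with 84 positive, 10 higher (4.74% of all genes) and 1 lower (4.62%) at an unadjusted p of 0.05. The smallest p was that of Sdhd, a membrane anchor of complex II, at 55.9 to 73.8 CPM with a median of 63.3 against 53.4 to 64.1 with a median of 56.6 in sedentary mice (0.17 ± 0.051, FDR = 0.304 by edgeR). Ndufa12, a complex I accessory subunit, followed at 0.23 ± 0.098, and the gene that was lower was Ndufa4l2 at −0.35 ± 0.15. Within lane 1 the median was 0.227 (4 low runners, 6 sedentary), and within lane 5 it was −0.0887 (2 and 6), so its direction did not hold in both lanes. The mitochondrial genes were positive in 13 of 13 with a median of 0.15, and 6 were higher at an unadjusted p of 0.05. Their medians within the lanes were 0.148 and 0.0593.

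The test of whether the running effect differed between ages set the young effect against each midlife effect, as an interaction term. Both midlife effects share their sedentary controls, and the young effect enters both, so these differences are not independent. In cortex, 88 of 88 nuclear genes had a more negative effect in young mice than in midlife high runners, with a median difference of −0.53 (short genes −0.28, long genes 0.15, all genes 0.00513). None was called (0.0131% of 15291 genes were called lower by edgeR), and 29 were lower at an unadjusted p of 0.05, against 8.11% of all genes. The smallest p values belonged to Ndufaf1 (−0.41 ± 0.15, FDR = 0.219 by edgeR), Ndufs1 (−0.21 ± 0.078) and Uqcrc2 (−0.42 ± 0.16). Ndufs1 is the largest core subunit of complex I. Without mouse 3597 the median was −0.31, and with the length score as a covariate it was −0.07. Against low runners in cortex the median was −0.27, with 86 of 88 negative, 0 called (0% of all genes were lower) and 1 lower at an unadjusted p of 0.05 (4.77% of all genes), Ndufs1 at −0.18 ± 0.078 (FDR = 0.398 by edgeR). Next were Ndufaf7 (−0.28 ± 0.15) and Ndufaf4 (−0.17 ± 0.098).

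In hippocampus the median difference was −0.24 against high runners and −0.27 against low runners, each with 84 of 88 negative. With the length score as a covariate these medians were −0.038 and −0.059, and with the choroid plexus score −0.096 and −0.14. By edgeR's quasi-likelihood test 0 nuclear genes were called in either (1.5% and 0.87% of 15407 genes were called lower), while 28 and 43 were lower at an unadjusted p of 0.05, against 13.6% and 12.7% of all genes. Ndufs4 (−0.35 ± 0.11 and −0.30 ± 0.11) and Ndufa9 (−0.26 ± 0.092 and −0.30 ± 0.09) were among the 3 smallest p values in both, with Uqcrfs1, the Rieske iron-sulfur protein of complex III (−0.30 ± 0.11), against high runners and Cox7c, a small subunit of complex IV (−0.45 ± 0.16), against low runners. With mouse 18606 kept, 32 and 37 nuclear genes were called lower, and the share of all genes called in those fits is not given. That library had a length score of −1.02, against −2.17 to −1.94 in the other young sedentary hippocampus libraries.

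Of the mitochondrial genes mt-Co1 was called in both hippocampus contrasts. It stood at 19972 to 22215 CPM in young runners and 21563 to 25780.4 in young sedentary mice. At midlife it stood at 20954 to 27441 CPM in high runners, 21521 to 26521 in low runners and 20774 to 25009.5 in sedentary mice. The groups overlapped at each age, and running alone was called in neither young (FDR = 0.0574 by edgeR) nor midlife hippocampus (FDR = 0.61 in high and 0.543 in low runners). The difference of effects was −0.32 ± 0.094 against high runners (FDR = 0.0484 by edgeR) and −0.34 ± 0.092 against low runners (FDR = 0.0391). The call was kept in 10 and 17 of the 32 fits that left out 1 mouse, and in 3 of 8 other settings in each contrast. It was lost with the length score (−0.20 ± 0.068, FDR = 0.115, and −0.21 ± 0.067, FDR = 0.108, by edgeR), with the choroid plexus score (−0.21 ± 0.11, FDR = 0.754, and −0.25 ± 0.099, FDR = 0.384), with edgeR 4 defaults and with other filters on low counts. The other 12 mitochondrial genes ranged from −0.32 to 0.13 and from −0.37 to −0.02. Cox10, which takes part in making the heme of complex IV, was called against high runners (−0.35 ± 0.097). Atpaf1, an assembly factor of the ATP synthase, was called against low runners (−0.20 ± 0.056).

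The last comparison set the regions against each other in sedentary mice. In young sedentary mice 11 nuclear genes were lower and 2 higher in hippocampus than in cortex by edgeR's quasi-likelihood test, where 22.3% and 21.6% of 15468 genes were. Their median difference was −0.08. In midlife sedentary mice 61 of 89 were lower and 0 higher, against 29.4% and 28.7% of 15540 genes, with a median of −0.35 beside −0.19 for short and 0.12 for long genes. All complexes shared it, with medians of −0.35 in I, −0.20 in II, −0.34 in III, −0.42 in IV and −0.32 in V. Within lane 1 the median was −0.45 and within lane 5 −0.25, with 87 of 89 negative in each. The markers checked the dissection: the 3 cortex markers were lower and the 4 hippocampus markers higher in hippocampus at both ages, each called.

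Only Cox6a2 separated the regions without overlap at both ages (8.64% and 16.3% of all genes were lower without overlap at midlife and in the young). In young sedentary mice it was 3.68, 4.18, 4.20, 4.35 and 5.70 CPM in cortex and 1.62, 1.81, 1.84 and 2.71 CPM in hippocampus, a difference of −1.16 ± 0.20 (FDR = 7.7e-05 by edgeR). At midlife it ran from 3.58 to 10.1 CPM in sedentary cortex with a median of 6.50, and from 1.246 to 3.41 in hippocampus with a median of 1.96, a difference of −1.66 ± 0.22 (FDR = 1.5e-08 by edgeR). Running did not move it past the threshold: −0.36 ± 0.15 in young cortex (FDR = 0.148) and −0.63 ± 0.24 in young hippocampus (FDR = 0.104).

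**Figure D4:**
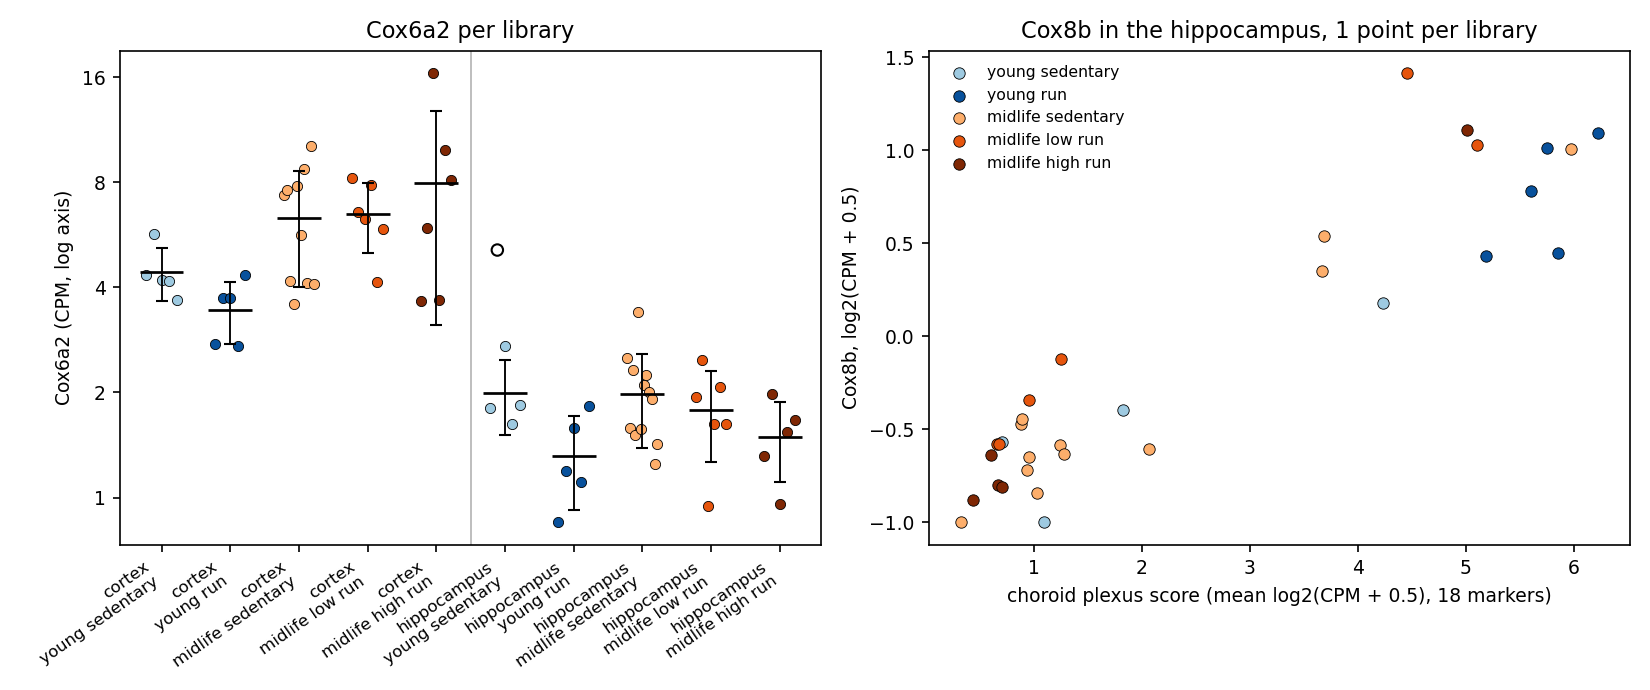
Left, Cox6a2 in each library (CPM, log axis) by region, age and activity, with mean and SD. All cortex libraries lie from 2.72 to 16.4 CPM and the hippocampus libraries used from 0.85 to 3.41. Right, Cox8b (log2(CPM + 0.5)) against the choroid plexus score in the 32 hippocampus libraries, where the libraries with a high score also have the high Cox8b values (r = 0.929).

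Also lower in young hippocampus were Cox7a1 (−0.63 ± 0.25), Ndufs6 (−0.28 ± 0.09), Cox5a (−0.27 ± 0.091), Cox7a2 (−0.25 ± 0.094), Cox7b (−0.25 ± 0.093), Uqcrh (−0.24 ± 0.09), Uqcrc1 (−0.21 ± 0.078), Atp5sl (−0.20 ± 0.068) and Ndufv1 (−0.20 ± 0.067). Ndufv1 is a core subunit of complex I and carries the flavin that takes electrons from NADH. Higher were Cox8b (1.38 ± 0.53) and Cox6b2 (0.79 ± 0.30), and with the choroid plexus score as a covariate neither was called. The choroid plexus markers were 17 of 18 higher in hippocampus at both ages. With the mouse number as a replicate block, which pairs the 2 regions of a mouse, 2 genes were higher and 2 lower. With the hippocampus of mouse 18606 kept, 1 was higher and 0 lower and the median was 0.27. Leaving out mouse 18605 left 1 lower gene, 18606 left 3, 18627 left 5 and 18681 left 16. The share of all genes called in these refits is not given.

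At midlife the 8 largest falls in hippocampus were Cox6a2, Cox4i2 (−0.73 ± 0.17), Ndufs6 (−0.60 ± 0.15), the complex III hinge protein Uqcrh (−0.57 ± 0.15), Cox5a (−0.57 ± 0.14), Cox7b (−0.56 ± 0.14), Ndufa6 (−0.54 ± 0.15) and Ndufb5 (−0.54 ± 0.14). Ndufs6, a subunit of complex I, ran from 24.2 to 51.6 CPM in cortex with a median of 34.4. In hippocampus it ran from 19.4 to 30.04 with a median of 23.02. Cox5a, a nuclear subunit of complex IV, ran from 71.2 to 150 CPM in cortex with a median of 97.6. Its hippocampus range was 58.6 to 85.3 with a median of 65.6. In both genes the groups overlapped at their low ends, and cortex reached higher. The number called lower was 31 without mouse 7383, 33 without 6967, 40 without 23886 and 76 without 3597, a high runner that enters the fit across all midlife groups. With the replicate block it was 70. With the length score as a covariate 16 were lower and 26 higher, and the median was 0.0354. The share of all genes called in these refits is not given.

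Of the 13 mitochondrial genes 3 were higher and 1 lower in hippocampus at midlife, where 28.7% and 29.4% of all genes were. mt-Nd6 (0.17 ± 0.06, FDR = 0.017), mt-Nd5 (0.16 ± 0.05, FDR = 0.0076) and mt-Nd4l (0.17 ± 0.07, FDR = 0.042), all complex I membrane subunits, were higher by edgeR, and mt-Co1 was lower (−0.19 ± 0.07, FDR = 0.018). In young mice 0 of 13 were called, and mt-Nd5 stood at 0.01 ± 0.11. Of the wider lists at midlife, 7 of 13 TCA cycle genes were lower (Ogdh at −0.16 ± 0.03, Fh1 at −0.36 ± 0.07), 17 of 38 assembly factors lower and 1 higher (Atpaf1 at −0.34 ± 0.03, Coa5 at 0.29 ± 0.05), and 10 of 17 glycolysis genes lower and 2 higher (Pfkp at −0.63 ± 0.03, Pfkl at 0.81 ± 0.06). In young mice Pfkp (−0.58 ± 0.049) was lower too and Pfkl (0.74 ± 0.054) and Hk2 (0.79 ± 0.12) higher. Of the regulators of mitochondrial biogenesis, Esrra was lower in hippocampus at both ages (−0.32 ± 0.09 young, −0.43 ± 0.06 midlife) and Gabpa higher (0.35 ± 0.09 and 0.52 ± 0.08). Oligodendrocyte markers were lower in hippocampus in 7 of 7 at both ages and neuron markers in 6 of 10, with 2 neuron markers higher at midlife and 1 in the young, and the part of cell composition in the values was not tested.

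Of the 13 mitochondrial transcripts, 2 separated the young from the midlife libraries by CPM, whatever the region or activity, and the other 11 overlapped. Here age and experiment time cannot be told apart. mt-Atp8, a small membrane subunit of ATP synthase, ran from 743 to 1715 CPM in the 19 young libraries and from 142 to 645 in the 45 midlife libraries. mt-Nd6, the only protein-coding gene of the light strand, ran from 926 to 1448 CPM and from 499 to 852. Both sets were apart with no overlap, where 0.101% of 15816 genes were higher and 0.0506% lower in every young library, and 0 of the 89 nuclear genes were apart in either direction. As a share of the 13 genes' counts, mt-Atp8 was 0.877% to 1.88% in young and 0.227% to 0.795% in midlife libraries, and mt-Nd6 1.214% to 1.583% and 0.629% to 1.204%. mt-Atp6 was 7.89% to 8.77% and 6.44% to 7.85%. mt-Co1 went the other way, at 26.6% to 30.7% and 30.9% to 36.5%. The reading frames of mt-Atp8 (MT, 7766 to 7969) and mt-Atp6 (7927 to 8607) overlap, as do those of mt-Nd4l and mt-Nd4, and mt-Nd5 (11742 to 13565) overlaps mt-Nd6 (13552 to 14070) on the other strand. The library kit keeps no strand, so reads in those overlaps cannot be assigned with certainty. For the same reason, mt-Nd6 counts may include reads of the other strand beyond its overlap with mt-Nd5, and their share was not tested.

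**Figure D5:**
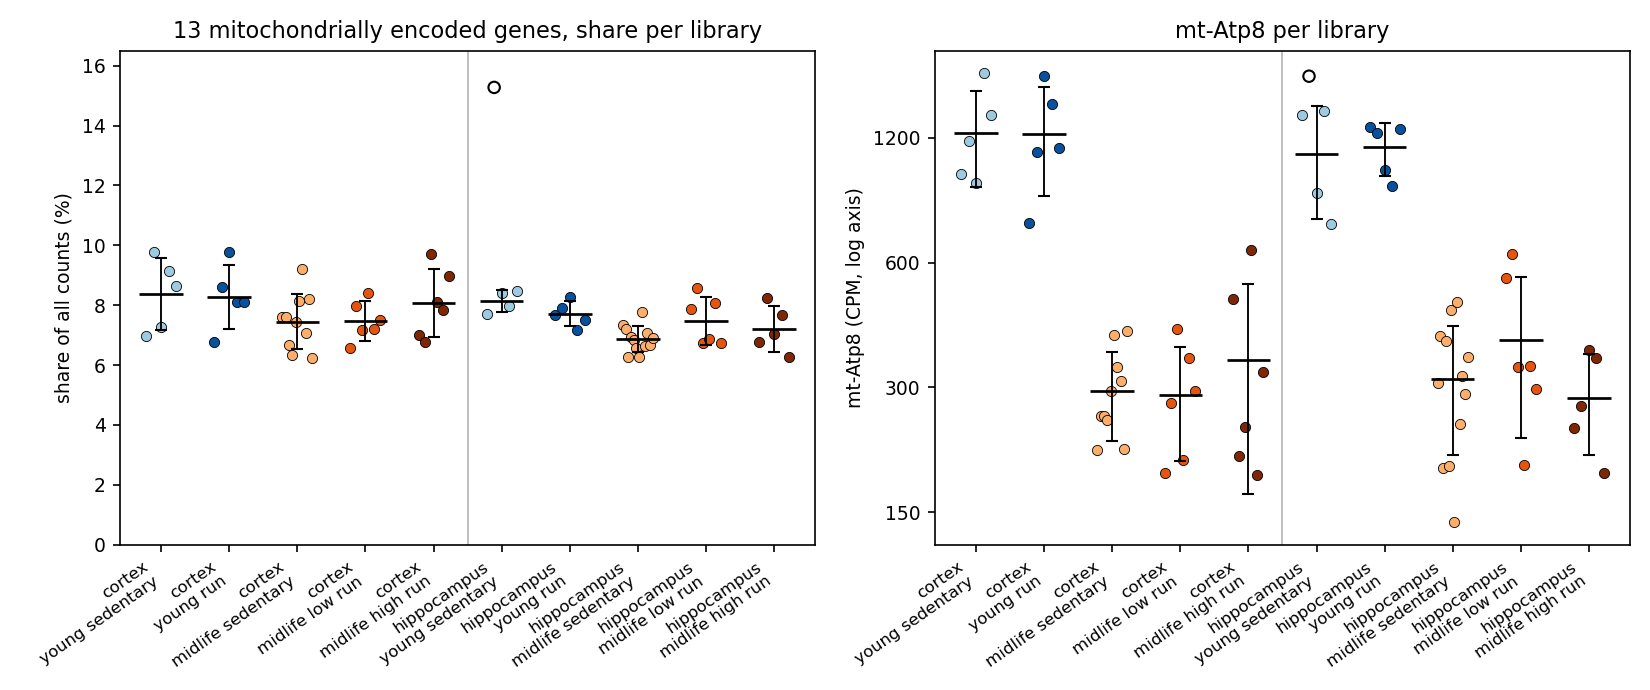
Left, share of all counts taken by the 13 mitochondrially encoded genes in each library (percent). Right, mt-Atp8 in each library (CPM, log axis). Bars show mean and SD, and the open point is the excluded hippocampus of mouse 18606, with a share of 15.3%. The shares overlap between all groups, while every young library lies above every midlife library in mt-Atp8 (743 to 1715 against 142 to 645 CPM).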

How the data were processed

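RNA from cortex and hippocampus was sequenced by the authors as paired, unstranded poly(A) libraries, aligned to mm10 with Bowtie2 2.2.0 and counted per gene with RSEM 1.2.12, tools that the submitters' processing notes name. The deposited tables hold counts per gene. The other deposited tables hold the authors' fold changes and p-values, which were not used; only their gene names and positions (other columns) were. A further 93 columns of counts come from mice outside the series and were left out.

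Genes above 1 CPM in at least 2 libraries were fitted with edgeR 4.0.16 (TMM scaling, quasi-likelihood F-test, R 4.3.3), and p-values were adjusted by Benjamini-Hochberg over all genes tested. Fits covered all groups of a region and age, or both ages or regions where these were compared. CPM in the text divides by the total count, and SE is the absolute log2 fold change over the square root of F. RPKM used principal transcript lengths from the GENCODE annotation of GRCm38. Scores add 0.5 to CPM before the logarithm. Total counts of 20442700 to 53075800 limit precision mainly in isoforms near or below 1 CPM. Simulated data had 200 genes changed by 1 on the log2 scale, a larger change than most reported here. The 4 fits tested (young cortex, midlife hippocampus, midlife regions, cortex ages) recovered 98.5% to 100% of these and called 6 to 19 unchanged genes. Genes were drawn independently with 1 fixed spread, so variation that genes share, such as that with the length score, was absent. The simulation therefore does not show how the fits perform under such variation.

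Members and lists were chosen with earlier results of these data known. Genes named are all members called but 1, which is not reported here (the 8 largest where over 20), the 13 mitochondrial genes, paralogous isoforms, the 3 nuclear members with the smallest p where none was called, the 3 highest and lowest by RPKM, and up to 4 called genes of other lists. Genes named beyond these were chosen after their values were seen. No label says that libraries of a group are technical repeats, and none were duplicates. Both regions of a mouse share its number, which pairs them: their deviations correlated from −0.033 to 0.146 in 9 young mice and −0.154 to 0.481 in 21 midlife mice. Alternatives covered DESeq2 1.42.0, scaling, filters, covariates, lanes, mouse 18606 kept and each mouse left out.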

Additional observations from a re-analysis of the deposited data

Results flagged for a closer look

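Of 35 groups of values tested for a library far from the others, 8 held one. The groups are not independent, since they include genes already called that vary together. Each of the 8 was a library of mouse 18526 or 18606, so no rate expected by chance is given. In hippocampus of young runners mouse 18526 had a nuclear gene level of 5.79 and Ndufa9 at 85.7 CPM, each above its group. The excluded hippocampus of mouse 18606 had a nuclear level of 6.59 and a mitochondrial share of 15.3%. The cortex library of the same mouse, which the study kept, stood above the other young sedentary libraries in Uqcrc2 (168 CPM), Atp5c1 (189.5 CPM), Ndufa9 (106 CPM) and Atp5f1 (239 CPM), all of which were called lower in young runners.

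The effect of running on mt-Co1 in hippocampus differed between ages by the interaction term, at −0.32 against high runners and −0.34 against low runners on the log2 scale. The call was lost with the length score (FDR = 0.115 and 0.108 by edgeR) and with the choroid plexus score (0.754 and 0.384), and was kept in 3 of 8 other settings in each contrast. Both share the young libraries and the midlife sedentary controls.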

How the results depend on the processing

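Of the counts and medians recomputed, 1762 were labelled the same, 89 weaker, 31 stronger, 12 moved and 7 reversed. The cause of those moves was not tested unless named. The same meant a count of similar size, or a median that moved by less than the SD between libraries within groups. Thus the midlife high-runner cortex median of 0.34 counted as the same at 0.023 with the length score. Sign changes of medians near 0 were not counted as reversed. Counts called in these refits are given without the share of all genes. Depth limits most the isoforms with medians near or below 1 CPM (Cox8b, Cox7a1, Cox4i2 and Cox6b2).

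Running, young cortex: 16 nuclear genes were lower by DESeq2, 2 with the length score and 0 with the choroid plexus score, under which Uqcrc2 was at −0.25 and Atp5c1 at −0.25. Leaving out 1 mouse gave 0 to 21, and a mitochondrial median of −0.11 to 0.06. Running, young hippocampus: DESeq2 called 2 higher, 6 lower and 1 mitochondrial gene. DESeq2 size factors, filterByExpr and no filter each gave 3 lower, and library sizes over nuclear genes 2. The choroid plexus score gave 0 higher and 0 lower, with Cox8b at −0.15 ± 0.67. With mouse 18606 kept, 0 were lower, and the medians were −0.47 (nuclear) and −0.33 (mitochondrial). Leaving out 1 mouse gave 0 to 2 higher, 0 to 20 lower and 0 to 1 mitochondrial. At midlife, the low-runner hippocampus median was −0.089 within lane 5, and the low-runner cortex mitochondrial median ran from −0.03 to 0.05 without 1 mouse.

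Between ages, the cortex high-runner median was −0.070 with the length score. Against low runners in cortex 1 was lower with it, and the mitochondrial median ran from −0.11 to 0.09 without 1 mouse. Against high runners in hippocampus DESeq2 called 1 lower, and 0 mitochondrial genes were called with either score, edgeR 4 defaults, filterByExpr or no filter. The medians were −0.10 (nuclear, choroid plexus score), −0.038 (nuclear, length score) and −0.083 (mitochondrial, length score). With mouse 18606 kept 32 were lower at a median of −0.60, with 4 mitochondrial calls at −0.49. Leaving out 1 mouse gave 0 to 1 higher, 0 to 2 lower and 0 to 1 mitochondrial. Against low runners DESeq2 called 1 lower, the same 5 settings called 0 mitochondrial genes, and the length score gave −0.059. With mouse 18606 kept 37 were lower at −0.62, with 6 mitochondrial calls at −0.53. Leaving out 1 mouse gave 0 to 2 lower and 0 to 2 mitochondrial.

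Between regions at midlife, the choroid plexus score left 29 lower and 2 mitochondrial calls. The length score gave 26 higher and 16 lower, medians of 0.035 (nuclear) and 0.075 (mitochondrial), and reversed Atp5g1 (0.20), Atp5g3 (0.057), Cox7a2l (0.085), Cox8a (0.079), Cox6b1 (0.084), Cox6a1 (0.046) and mt-Cytb (0.11). Leaving out 1 mouse gave 31 to 76 lower and 2 to 4 mitochondrial calls. In the young, the choroid plexus score gave 0 higher and 2 lower with Cox8b at −0.17, the length score 7 higher at a median of 0.017, and no filter 1 higher. With the mouse number as a replicate block 2 were lower and the median was 0.0046. With mouse 18606 kept 1 was higher and 0 lower, the medians were 0.27 and 0.25, and Cox5a (0.065), Ndufs6 (0.20), Cox7b (0.11), Cox7a2 (0.22), Ndufv1 (0.028) and Uqcrh (0.17) reversed. Leaving out 1 mouse gave 0 to 3 higher, 1 to 16 lower, and medians of −0.16 to 0.0039 (nuclear) and −0.12 to 0.01 (mitochondrial).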
